A study of Mus musculus with 4 samples.

Results

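The set described here was drawn from chromatin regions that were accessible in fibro/adipogenic progenitors (FAPs) of young dystrophic control mice. Its regions were also called in 2 of 3 further FAP libraries and lacked a call in the remaining one. The deposited regions of the 4 libraries were merged where they touched or overlapped. Autosomal merged regions were kept that held a young control call and calls of exactly 2 of young TSA, old control and old TSA. This gave 8335 of 163967 autosomal merged regions. They were 19.8% of the 42159 merged regions that held a young control call, and they covered 18.8 Mb. Old control was the library without a call in 3303 of them, old TSA in 2818 and young TSA in 2214. The members were chosen by the authors' calls in all 4 libraries, so the pattern of calls is a description and not a finding.

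The cells were sorted from hind limb muscles of C57BL/6 mdx mice, called young or old in the labels, as Sca-1-positive cells free of the blood, endothelial and satellite cell markers Ter119, CD45, CD31 and α7integrin. Mice received trichostatin A (TSA) at 0.5 mg per kg per day for 15 days, or saline ("none" in the treatment field of the controls). Each of the 4 groups (young control, young TSA, old control, old TSA) was 1 library of the same strain, so the spread between animals is unknown and no test was possible. The sources used here give no age in weeks, no sex and no word on pooled animals, and the defining markers of FAPs could not be checked in lists without genes.

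FAPs are mesenchymal cells between the muscle fibres that support regeneration, and in dystrophic muscle they can turn into fibroblasts and fat cells. Histone deacetylases remove acetyl groups from histone tails, and TSA inhibits them, which in general favours open chromatin. NA-seq marks open chromatin by cutting intact nuclei with a restriction enzyme, so a region can be found only where the enzyme has a site. A region without a call was not called, and is not thereby shown to be closed. Coordinates are of mouse build mm9 and were not joined to genes or sequence, because the gene tables at hand are of another build. All intervals are 95% exact binomial (Clopper-Pearson) intervals, which take each region as a separate draw and hold no error beyond counting. The read depth of the libraries is unknown.

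The longest list was the one most often without a call. Among the regions that the other 3 libraries shared, 18.4% lacked old control (interval 17.8 to 18.95%), whose list held 97139 regions. Old TSA, with 87416 regions, was lacking in 16.1% (15.6 to 16.7%). Young TSA, with 80122 regions, was lacking in 13.1% (12.6 to 13.6%). This order was tied to the young control call that the rule demands. Without that demand, 14130 autosomal regions were called in both old libraries but not in young TSA, against 11813 in both TSA libraries but not in old control and 11788 in young TSA and old control but not in old TSA. Young control held a call in 28.0% (27.2 to 28.8%) of the regions that lacked old control. It did so in 23.9% (23.1 to 24.7%) of those that lacked old TSA and in 15.7% (15.1 to 16.3%) of those that lacked young TSA. Where all 3 other libraries had a call, young control had one in 45.2% (44.7 to 45.8%). Regions called in both old libraries but not in young TSA were thus the least often called in young control.

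In merged width the members lay between regions of 1 library and regions of all 4. A merged region spans all its calls, so its width grows with the number of libraries merged. The part of that in the differences below was not tested. Their merged width had a median of 1900 bp in each of the 3 subsets, with upper quartiles of 2500 to 2600 bp. Regions called in all 4 libraries had a median of 2500 bp, regions of the other pattern with 3 calls (absent from young control) 2000 bp, and regions of young control alone 1300 bp. A merged width of exactly 1900 bp, the most frequent width, was held by 38.7% of the members that lacked old control, 37.4% of those that lacked old TSA and 36.4% of those that lacked young TSA. It was held by 22.0% of the regions of all 4 libraries.

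The length called in a single library set the subset without young TSA apart. In that subset the young control call had a median length of 1400 bp, and 21.1% of the regions (19.5 to 22.9%) had 1900 bp or more called in young control. The corresponding shares were 38.9% (37.2 to 40.6%) in the subset without old control and 35.7% (33.9 to 37.5%) in that without old TSA, with median lengths of 1700 and 1600 bp. Regions of all 4 libraries reached 51.9% (51.1 to 52.7%). The shortest length, 1000 bp, was called in young control in 17.1% of the members without young TSA, against 11.0% without old control and 12.6% without old TSA. In the old libraries the members without young TSA were about as long as the other members, and all members were shorter than regions of all 4 libraries. Old control called 1900 bp or more in 53.9% (51.8 to 56.0%) of the members without young TSA and in 51.4% (49.6 to 53.3%) of those without old TSA, against 79.7% of the regions of all 4 libraries. Old TSA did so in 46.7% (44.6 to 48.8%) of the members without young TSA and in 50.5% (48.7 to 52.2%) of those without old control, against 78.8% of the regions of all 4. Young TSA had the highest shares, with 61.7% (60.0 to 63.3%) in the members without old control and 57.5% (55.7 to 59.4%) in those without old TSA, against 83.0%.

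**Figure D1:**
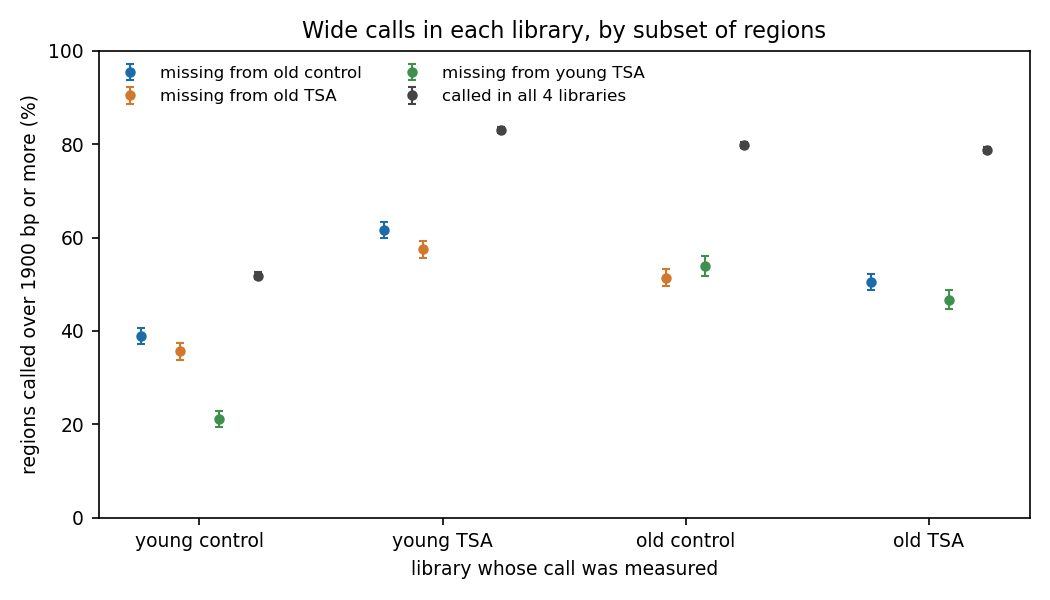
Share of regions (%, vertical axis) in which a library called 1900 bp or more, for each library (horizontal axis) and subset of regions (colours). Points are shares and bars 95% exact binomial intervals. The members without young TSA stand at 21.1% in young control, below the other subsets, while in old control they stand at 53.9%, beside the 51.4% of the members without old TSA.

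Within single members, the young control call was more often the shorter one. It was shorter than the old control call in 62.0% (60.0 to 64.0%) of the members without young TSA and longer in 22.8%. In the members without old TSA it was shorter than the old control call in 50.6% (48.7 to 52.5%) and longer in 31.7%. Against old TSA, the young control call was shorter in 58.9% (56.8 to 61.0%) of the members without young TSA and in 47.3% (45.5 to 49.0%) of those without old control. The regions of all 4 libraries had shares of 59.1% and 59.3% against old control and old TSA, so the members without an old library lay below them. The members without young TSA lay above them against old control and within counting error of them against old TSA.

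How often a library was lacking depended on the length called in young control. At 1000 bp the 3 libraries were alike. Among regions that the other 3 libraries shared, 24.0% (21.8 to 26.2%) lacked old control, 23.6% (21.4 to 25.8%) lacked old TSA and 24.8% (22.6 to 27.0%) lacked young TSA. At 1900 bp they had separated. Old control was then lacking in 17.7% (16.7 to 18.8%), old TSA in 14.0% (13.0 to 14.9%) and young TSA in 7.70% (6.97 to 8.49%). Among regions with 2000 bp or more called in young control, the shares were 9.26% (8.31 to 10.3%), 8.11% (7.21 to 9.08%) and 2.90% (2.35 to 3.54%). Only 93 of the 3209 widest regions lacked young TSA, against 318 of 3434 that lacked old control. The 3 libraries thus differed at the longer young control calls and not at the shortest. A longer call also offers more bases for another call to overlap, and the part of that in these shares was not tested.

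**Figure D2:**
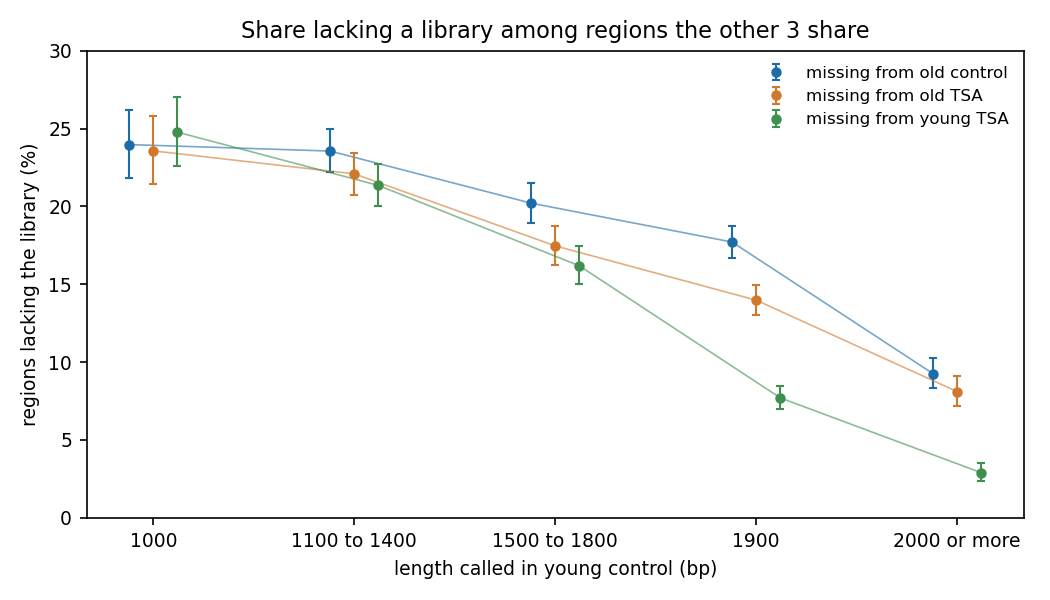
Share of regions lacking a library (%, vertical axis) among the regions that the other 3 libraries shared, by the length called in young control (bp, horizontal axis). Points are shares, bars 95% exact binomial intervals. The 3 libraries start together at 23.6 to 24.8% for 1000 bp and end at 2.90% for young TSA against 8.11% and 9.26% for the old libraries.

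The calls that made up a member mostly lay on top of each other. Of the members with 1 call in each of the 3 libraries, all calls shared at least 1 bp in 97.0% (96.3 to 97.6%) without old control, 94.95% (94.1 to 95.7%) without old TSA and 94.6% (93.6 to 95.5%) without young TSA. The remaining 96, 137 and 116 members were chains in which not all of the calls met. Identical starts and ends in all 3 libraries were found in 9.41% (8.42 to 10.5%), 6.56% (5.66 to 7.56%) and 4.05% (3.26 to 4.97%) of these members, in the same order. The median common stretch was 1200, 1200 and 1100 bp. Pairs of libraries differed in the same way. Young control and young TSA had the same start and end in 20.0% (18.6 to 21.4%) of the members without old control and in 16.7% (15.3 to 18.1%) of those without old TSA. Young control and old control had them in 13.1% (11.8 to 14.4%) of the members without old TSA and in 10.4% (9.11 to 11.7%) of those without young TSA. In each subset the pair without young control agreed most. For young TSA and old TSA this was 23.6% (22.1 to 25.1%) of the members without old control. For young TSA and old control it was 20.8% (19.3 to 22.4%) of the members without old TSA. For both old libraries it was 18.3% (16.7 to 20.0%) of the members without young TSA. In the regions of all 4 libraries these pairs reached 29.1%, 26.7% and 27.9%.

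A missing call was rarely a call that had just failed to touch. The nearest call of the missing library lay at a median of 4.80 kb from the members without old control, 5.90 kb without old TSA and 7.10 kb without young TSA. It lay within 1 kb for 14.6% (13.4 to 15.8%), 12.2% (11.1 to 13.5%) and 10.8% (9.53 to 12.2%) of them. Within 5 kb the shares were 51.6% (49.9 to 53.3%), 45.0% (43.2 to 46.9%) and 40.2% (38.2 to 42.3%). Regions without young control, the shortest list, lay a median of 12.9 kb from its nearest call. The longer the list of the missing library, the shorter was this median, and the part of list length in it was not tested. At the edge of the rule, the missing library had a call only 100 bp away from 42, 33 and 26 members, in the same order. On the other side of it, 11, 20 and 9 regions of all 4 libraries owed the call of old control, old TSA or young TSA to at most 100 bp beneath the other calls.

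**Figure D3:**
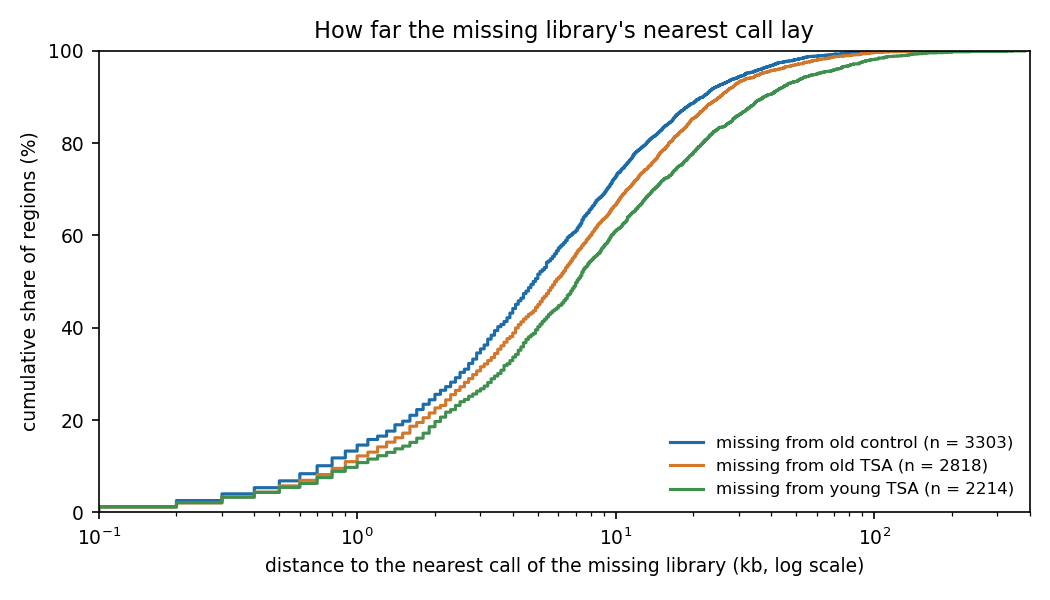
Cumulative share of members (%, vertical axis) by the distance to the nearest call of the library that lacked the region (kb, log scale, horizontal axis), 1 line per subset. The line for members without old control lies to the left of the others with a median of 4.80 kb, and that for members without young TSA to the right with 7.10 kb.

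The members without young TSA lay in sparser surroundings in every library, not in young TSA alone. In the 50 kb on either side of a member without young TSA, young control had 2.52 calls on average, against 3.47 around the members without old control and 3.34 around those without old TSA. Young TSA had 4.87 calls there, against 6.21 and 5.99. Old control had 5.39 calls, against 6.13 and 5.91, and old TSA 5.02, against 5.77 and 5.57. Relative to the surroundings of regions of all 4 libraries, these means were 0.699 and 0.718 for the young and 0.804 and 0.782 for the old libraries. Around the members without old control, every ratio lay between 0.899 and 0.963, and that of old control itself was 0.914. Around the members without old TSA they lay between 0.867 and 0.927, with old TSA itself lowest. No young control call at all was found within 50 kb of 16.5% of the members without young TSA, against 9.60% and 9.87% of the others.

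Counted over pairs of neighbours, absences were more frequent beside a member than beside a region of all 4 libraries. Among the neighbours within 50 kb of a member without young TSA, counting only regions shared by the other 3 libraries, 12.9% also lacked it, near the 13.1% of all such regions, while 8.29% of the neighbours of regions of all 4 libraries did. For old control the neighbours of members had 18.9% against 18.4% of all such regions and 16.6% beside regions of all 4 libraries. For old TSA these values were 16.0%, 16.1% and 13.7%. Pairs of neighbours share regions, so no interval is given. Each neighbour share counts a region once per pair, and the overall share counts it once, so the overall share is not a like comparison. Regions with many neighbours also weigh more in each neighbour share. The part of that in the contrast with regions of all 4 libraries was not tested. Most members had no other member of the same subset within 50 kb. A further one lay that near to 26.3% of the members without old control and 21.2% of those without old TSA. Of those without young TSA it was 13.7%. The median distances were 126 kb, 165 kb and 288 kb. Distances grew as the subsets got smaller (3303, 2818 and 2214 members), and the part of subset size in them was not tested.

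Few of the missing calls were differences by the authors' own lists. The authors deposited, for each age, a list of regions higher after TSA (gained) and one of regions higher in control (lost), with no values. Each gained or lost list of the age in which a call is missing uses the same libraries as the rule, so these counts describe the members and support nothing. Of the members without old control, 238 (7.21%, 6.35 to 8.14%) overlapped the old gained list, as did 2.10% of all autosomal merged regions. Of the members without old TSA, 158 (5.61%, 4.79 to 6.52%) overlapped the old lost list, against 2.56% of all. Of the members without young TSA, 24 (1.08%, 0.696 to 1.61%) overlapped the young lost list, against 0.274% of all. The other 3065, 2660 and 2190 members lacked the call without being listed as lower in that library. Listed members more often had wide calls in the library of the same age than the other members, though most members with such wide calls were not listed. Old TSA called 1900 bp or more in 86.1% (81.1 to 90.3%) of the listed and 47.7% (45.9 to 49.5%) of the other members without old control. Old control did so in 94.9% (90.3 to 97.8%) and 48.8% (46.9 to 50.8%) of the members without old TSA, and young control in 70.8% (48.9 to 87.4%) and 20.6% (18.9 to 22.3%) of those without young TSA. From the side of the lists, 6.91% of the autosomal old gained regions were members without old control. Members without old TSA were 3.75% of the old lost regions, and members without young TSA 5.24% of the young lost regions. These 3 subsets held 3303, 2818 and 2214 of the 163967 autosomal merged regions.

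The lists of the other age compare libraries that had both called the region. Of the members without old control, 130 (3.94%, 3.30 to 4.66%) overlapped the young gained list and 6 (0.182%, 0.0667 to 0.395%) the young lost list. Of the members without old TSA, 106 (3.76%, 3.09 to 4.53%) were young gained and 6 (0.213%, 0.0782 to 0.463%) young lost. All autosomal merged regions overlapped the young gained list in 5.00%, and regions of all 4 libraries in 16.1% (15.5 to 16.7%). Regions that the TSA-treated and control young mice shared with 1 old library were thus listed as gained less often than those shared with both. Regions of all 4 libraries were also wider, and 98.1 to 99.7% of the young gained regions in these sets had 1900 bp or more called in young TSA. Among regions with exactly 1900 bp called in young TSA, 3.41% (2.49 to 4.55%) without old control and 4.74% (3.54 to 6.20%) without old TSA were young gained, against 8.48% (7.73 to 9.28%) of those in all 4. With 2000 bp or more the shares were 11.4% (9.22 to 13.9%), 9.54% (7.25 to 12.3%) and 27.1% (26.1 to 28.2%). Members without young TSA were listed about equally as old gained (25 regions, 1.13%, 0.732 to 1.66%) and old lost (24 regions, 1.08%, 0.696 to 1.61%). Both shares lay below those of all 4 libraries, at 2.97% and 3.02%, and below those of all autosomal merged regions given above. Contrary listings were nearly absent. Of the 3303 members without old control, 1 was old lost. None of the 2818 members without old TSA was old gained, which allows a share of up to 0.106% taken as 3 regions and of 0.131% by the interval. None of the 2214 members without young TSA was young gained, which allows up to 0.136% and 0.166% in the same way. A region higher in a library is nearly always called there, so these counts follow from the lists.

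**Figure D4:**
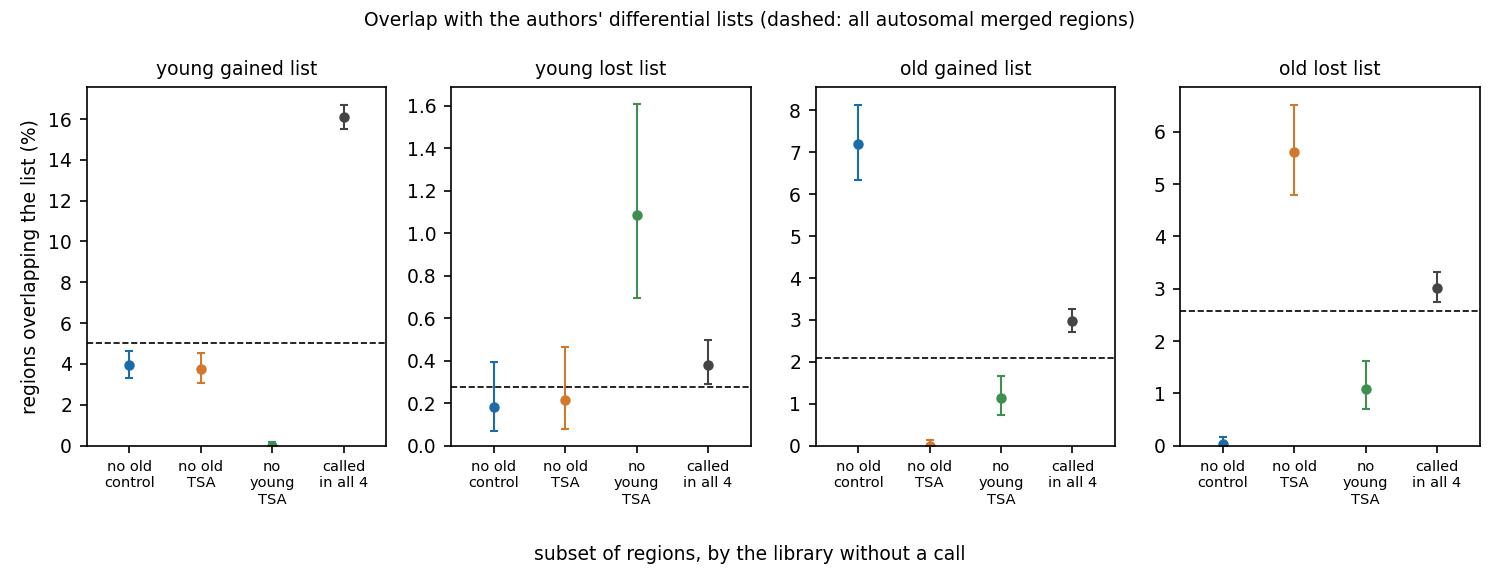
Share of regions (%, vertical axes of different range) that overlapped each of the authors' 4 differential lists, by subset (horizontal axis), with 95% exact binomial intervals. Dashed lines give all autosomal merged regions. In the young gained list the members without an old library stand at 3.94% and 3.76%, below the 16.1% of regions called in all 4 libraries.

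Young gained regions were more frequent among members in either old list. Of the 238 members without old control that were old gained, 18 were young gained as well (7.56%, 4.54 to 11.7%), against 3.65% (3.02 to 4.38%) of the other members without old control. Of the 158 members without old TSA that were old lost, 15 were young gained (9.49%, 5.41 to 15.2%), against 3.42% (2.76 to 4.18%) of the others. The excess was therefore present whether the old mice had gained or lost the region. Regions of all 4 libraries showed it too, with 31.0% young gained among the old gained and 30.7% among the old lost, against 15.6% of the rest in both cases. Width moved with it. The young gained members had a median merged width of 2500 bp without old control and 2650 bp without old TSA, and the members outside that list 1900 bp. The part of width in this excess was not tested.

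The autosomes differed little in the share without old control or old TSA and more in the share without young TSA. For old control the share ran from 15.0% on chromosome 7 (13.1 to 17.0%) to 21.3% on chromosome 19 (17.7 to 25.3%), around 18.4% over all autosomes. For old TSA it ran from 13.7% on chromosome 7 (11.8 to 15.7%) to 19.2% on chromosome 13 (16.3 to 22.5%). For young TSA it ran from 9.25% on chromosome 19 (6.63 to 12.5%) to 17.9% on chromosome 16 (14.8 to 21.4%), around 13.1%. The interval excluded the value over all autosomes for 3 of the 19 autosomes where old control was lacking, for 2 where old TSA was and for 5 where young TSA was. Among 19 such intervals some can exclude that value by counting error alone, and no correction was made for their number. Chromosome 11 lay above that value for old control, with 21.2% (18.9 to 23.7%), and below it for young TSA, with 10.6% (8.76 to 12.6%). The lists themselves differed there, with 5.37% of the autosomal regions of old control, 6.27% of young TSA and 6.43% of young control on that chromosome. Chromosome 3 lay above it for young TSA, at 17.1% (14.7 to 19.7%), and held 5.23% of the young TSA and 5.54% of the young control regions. Chromosome 5 lay below it for young TSA, at 10.0% (8.39 to 11.9%), and held 7.23% and 6.65% of those lists. Chromosome 19, with the lowest share without young TSA, went the other way, with 2.44% of the young TSA and 2.53% of the young control regions.

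**Figure D5:**
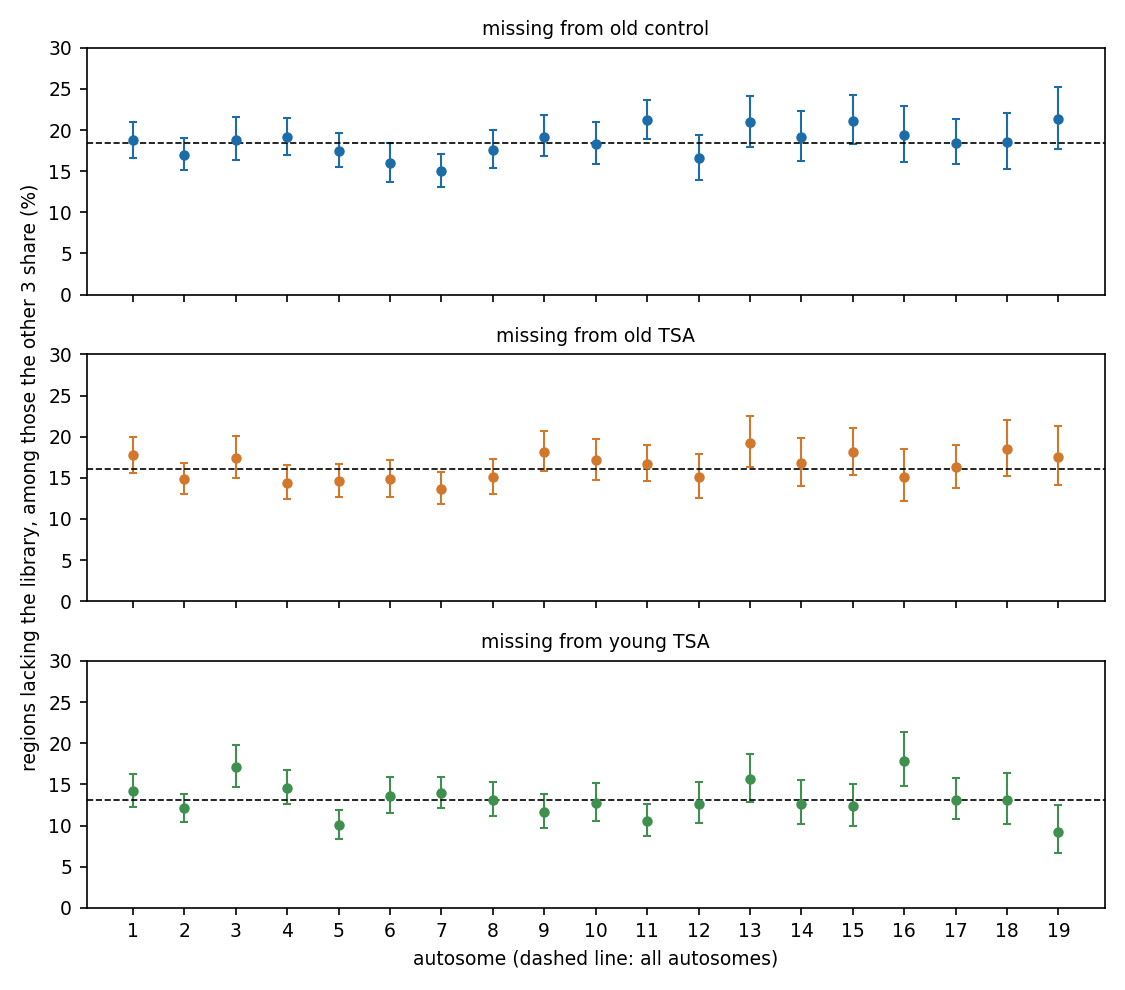
Share of regions lacking old control (top), old TSA (middle) or young TSA (bottom), in %, among the regions that the other 3 libraries shared, for each autosome. Bars are 95% exact binomial intervals and dashed lines the value over all autosomes. Chromosome 11 lies above the line for old control at 21.2% and below it for young TSA at 10.6%.

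The widest members show how the calls differed within a region. Among those without old control, the widest ran on chromosome 5 from 145925701 to 145931200, where young TSA called the whole 5500 bp, young control 2400 bp in 2 calls and old TSA 1300 bp. On chromosome 10 from 75088001 to 75093400, young TSA called 5200 bp, young control 3800 bp and old TSA 1900 bp, with the nearest old control call 9.50 kb away. On chromosome 7 from 141479701 to 141485000, old TSA had the longest call, 4000 bp, against 3500 bp in each young library. The remaining widest regions were in young lists and went opposite ways. On chromosome 17 from 12982901 to 12988200, a young gained region, young TSA called 5300 bp and young control 1500 bp. On chromosome 3 from 131145901 to 131151300, a young lost region, young control called 3600 bp and young TSA 1100 bp.

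Among the members without old TSA, the widest lay on chromosome 13 from 96142501 to 96149000. Young TSA called 4900 bp of it, old control 4800 bp in 2 calls and young control 1900 bp. On chromosome 12 from 100581401 to 100587600, young TSA called 6100 bp, young control 2700 bp and old control 1500 bp. On chromosome 11 from 74648701 to 74654400, young TSA called 4300 bp, young control 3300 bp and old control 1900 bp. The region on chromosome 16 from 31233201 to 31239400 was a near miss, since old TSA had a call only 300 bp outside it.

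In the members without young TSA, the widest regions were wide through the old libraries. On chromosome 2 from 152882901 to 152890300, old control called 5600 bp and old TSA 5100 bp, but young control 1100 bp. On chromosome 1 from 191657001 to 191662900, old control called all 5900 bp, old TSA 2800 bp and young control 1200 bp. On chromosome 3 from 127212101 to 127217600, the lengths were 4500 bp in old control, 3100 bp in old TSA and 1700 bp in young control. The old libraries disagreed in the remaining regions of this kind. On chromosome 7 from 109264701 to 109271800, an old lost region, old control called all 7100 bp, old TSA 1200 bp and young control 1000 bp. On chromosome 10 from 62179301 to 62186300, an old gained region, old TSA called 6600 bp, old control 4000 bp and young control 1400 bp.

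Members far from any call of the missing library were of ordinary width. The farthest without young TSA lay on chromosome 9 from 88614901 to 88617000, 385 kb from a young TSA call, with 1400 bp called in young control, 2000 bp in old control and 1800 bp in old TSA. The next were on chromosome 4 from 29615901 to 29617800, at 342 kb, and chromosome 16 from 40399701 to 40401300, at 325 kb. For old TSA the greatest distance was 187 kb, on chromosome 2 from 81214501 to 81216400, where both young libraries called 1900 bp and old control 1500 bp. A region on chromosome 9 from 123874601 to 123876500 followed at 141 kb. Another lay on chromosome 12 from 38495801 to 38497700, at 139 kb. Without old control, a region on chromosome 3 from 12411701 to 12413600 lay 122 kb from a call. That on chromosome 5 from 17194101 to 17196000 lay 113 kb away.

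A pair of members ran against the pattern of their lists. The region on chromosome 13 from 58813601 to 58815500 lacked old control yet overlapped the old lost list, and old control had a call 500 bp away. The region on chromosome 10 from 119918601 to 119922300 lacked old TSA and overlapped both the young gained and the young lost list, with 1900 bp called in each young library over 3700 bp in all.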

How the data were processed

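Accessible regions were taken from 8 lists the authors deposited, 4 of the libraries and 4 of differences between TSA and control, which hold only positions. Bowtie 0.12.7 and build mm9 are named per the submitters' processing notes. Read depth, the caller of the regions and its threshold, how differential regions were tested, and whether NlaIII or HpaII cut a given library are not given in the sources used. Region edges are multiples of 100 bp, and the shortest region has 1000 bp. The sample titles gave the groups. Merging and counting used scipy 1.17.1, pandas 2.3.3 and numpy 2.4.6 under Python 3.11.15, and plots matplotlib 3.10.9. A region counted as in a list at an overlap of at least 1 bp, and the length called in a library is summed over its calls in the merged region. Of 21 checks against known answers, 21 were met. Call patterns were checked on simulated lists without touching neighbours, and overlap, covered length and distance on part of the real regions.

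The members, lists and alternatives were chosen with earlier results of these data known. Regions named were, for each missing library, the 5 widest, the 3 farthest from a call of that library, and those in a contrary list or in both lists of an age. Those on chromosome 18 are not reported here. Planned analyses of genes, markers and sequence needed an mm9 genome and were not run. Dropping the young control call from the rule, and splitting young gained shares by the length called in young TSA, were chosen after seeing the data.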

Additional observations from a re-analysis of the deposited data

Results flagged for a closer look

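The rule keeps autosomes, so the X chromosome lies outside the comparisons above. It held 72 merged regions with a young control call and exactly 2 of the 3 other calls, among 411 X regions with a young control call. On the autosomes these were 8335 of 42159 (19.8%). The X regions were flagged because they had not been analysed, which says nothing on whether 72 is many. Of the 72, 28 lacked old control, 17 old TSA and 27 young TSA, beside 71 regions of the X chromosome called in all 4 libraries. Among the X regions that the other 3 libraries shared, 28.3% (19.7 to 38.2%) lacked old control, 19.3% (11.7 to 29.1%) old TSA and 27.6% (19.01 to 37.5%) young TSA. The autosomal shares of 18.4% and 13.1% for old control and young TSA lay below these intervals, and that of 16.1% for old TSA within it. The labels do not state the animals' sex.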

How the results depend on the processing

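Old control remained the library most often lacking and young TSA the least often under each of the other ways of merging, matching or filtering regions tried, and the order changed only without the young control call. Then the numbers lacking old control, old TSA and young TSA were 11813, 11788 and 14130 (31.3%, 31.2% and 37.4%), because regions absent from young control enter by construction. With regions of 1900 bp or wider only, the numbers were 1236, 987 and 432 (46.6%, 37.2% and 16.3%). With the widest 43335 regions of each list, so that lists were of equal length, 1419 lacked young TSA, and the shares were 48.6%, 30.1% and 21.3%. Ties in width were kept in chromosome order, so regions at the cut were dropped from the last chromosomes. In old control, the longest list, the cut fell among calls of 1900 bp, so this setting itself removed old control calls. The part of that in the 48.6% was not tested. With young control regions as units and 50% of each covered, old control was lacking in 41.5% and young TSA in 25.3%, and with a call within 1000 bp counted as called, old control in 38.1%. Merging regions up to 500 bp apart, young control regions as units with any overlap, and all chromosomes left every number within 1.5 times and every share within its interval. Of 50 further values for 18 results on width, distance and lists, 43 stayed within their error and 7 moved. Among these were the shares within 5 kb when regions up to 500 bp apart were merged, and, with 1900 bp or more called in young TSA, young gained shares of 6.33% without old control and 6.42% without old TSA. No paired analysis was possible because each group is 1 library, and for the same reason no replicate could be left out. The alternative for sequence composition was not run.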
